A study of Mus musculus with 4 samples.

Results

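The genes of glycolysis, gluconeogenesis, pyruvate entry into mitochondria and the pentose phosphate pathway were compared between intestinal stem cells and absorptive villus cells of the mouse. The set was a list of 49 genes of central carbon metabolism, and each gene was taken at its brightest probe set that the platform annotation assigns to a single symbol. Of the 49, 41 were measured among 12393 genes in all. Gapdh was seen only by control probe sets of the array and is given separately. Hk3, Gpi1, Eno1, Pfkfb1, Pfkfb4, Mpc2 and G6pdx had no probe set listed under their symbol alone and were left out.

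RNA was hybridised to 4 Affymetrix arrays. Of these, 2 carried RNA of flow-sorted Lgr5(hi) cells, the stem cells of the crypt base, of the wild type. The other 2 carried RNA of villus cells that EDTA had released, of an intestinal conditional knockout of Atoh1. Atoh1 is the transcription factor that secretory cells need, and the submitters call these villus cells enterocytes. All samples were proximal intestinal epithelium of C57BL/6 mice aged 4 to 6 weeks. Tamoxifen stands in every label, also in those of the wild-type stem arrays, at 1 mg per day for 5 days and a wait of 5 days. No source used here gives the Cre line, the deleted part of Atoh1 or the animals behind each replicate. The labels call the 2 arrays of each group biological replicates. The p-values and standard errors rest on the spread between these, which limma moderates towards the spread over all genes. They cover no variation beyond these arrays. Stem arrays and enterocyte arrays differ in cell type, in genotype and in isolation at once, and these cannot be told apart.

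Glycolysis splits glucose into pyruvate and yields ATP without oxygen. Pyruvate then becomes lactate in the cytosol or enters mitochondria for oxidation. The pentose phosphate pathway branches off after the first step and makes NADPH and ribose for nucleotides. Gluconeogenesis runs the other way, by its own enzymes at the irreversible steps, and is best known from liver and kidney, with the small intestine as a further site. Rapidly dividing cells often make lactate even with oxygen at hand, and limited import of pyruvate into mitochondria has been reported for intestinal stem cells.

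Most of the measured central carbon genes were higher in the enterocyte arrays. Of the 41 genes, 21 were higher, 5 were lower and 15 did not pass (limma, Benjamini-Hochberg adjusted p under 0.05 over all 12393 genes). Over all genes 40.6% were called, 18.2% as higher and 22.4% as lower. The median log2 difference, enterocyte minus stem, was 0.55 in the 41 genes and -0.0026 over all genes. At least 2-fold, 16 genes were higher and 2 lower, against 10.8% and 13.6% of all genes. With levels under the background of the arrays raised to it, a choice made after seeing the data, 14 were higher and 2 lower, and the median was 0.35 against 0 over all genes. The levels of the enterocyte arrays lay wholly above those of the stem arrays in 28 of the 41 genes and wholly below in 7, against 30.5% and 34.8% of all genes. The calls depended on the number of arrays in either group. Without either stem array 0 genes of the set and 0 of all genes passed, while 22 (without stem replicate 1) and 24 (without stem replicate 2) of the 41 genes, and 4675 and 4817 of all, had an unadjusted p under 0.05 by limma. With enterocyte replicate 1 left out, 6 were higher and 3 lower, and without enterocyte replicate 2, 6 were higher and 2 lower. An exact permutation test of 2 arrays against 2 cannot give a p below 0.33.

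**Figure D1:**
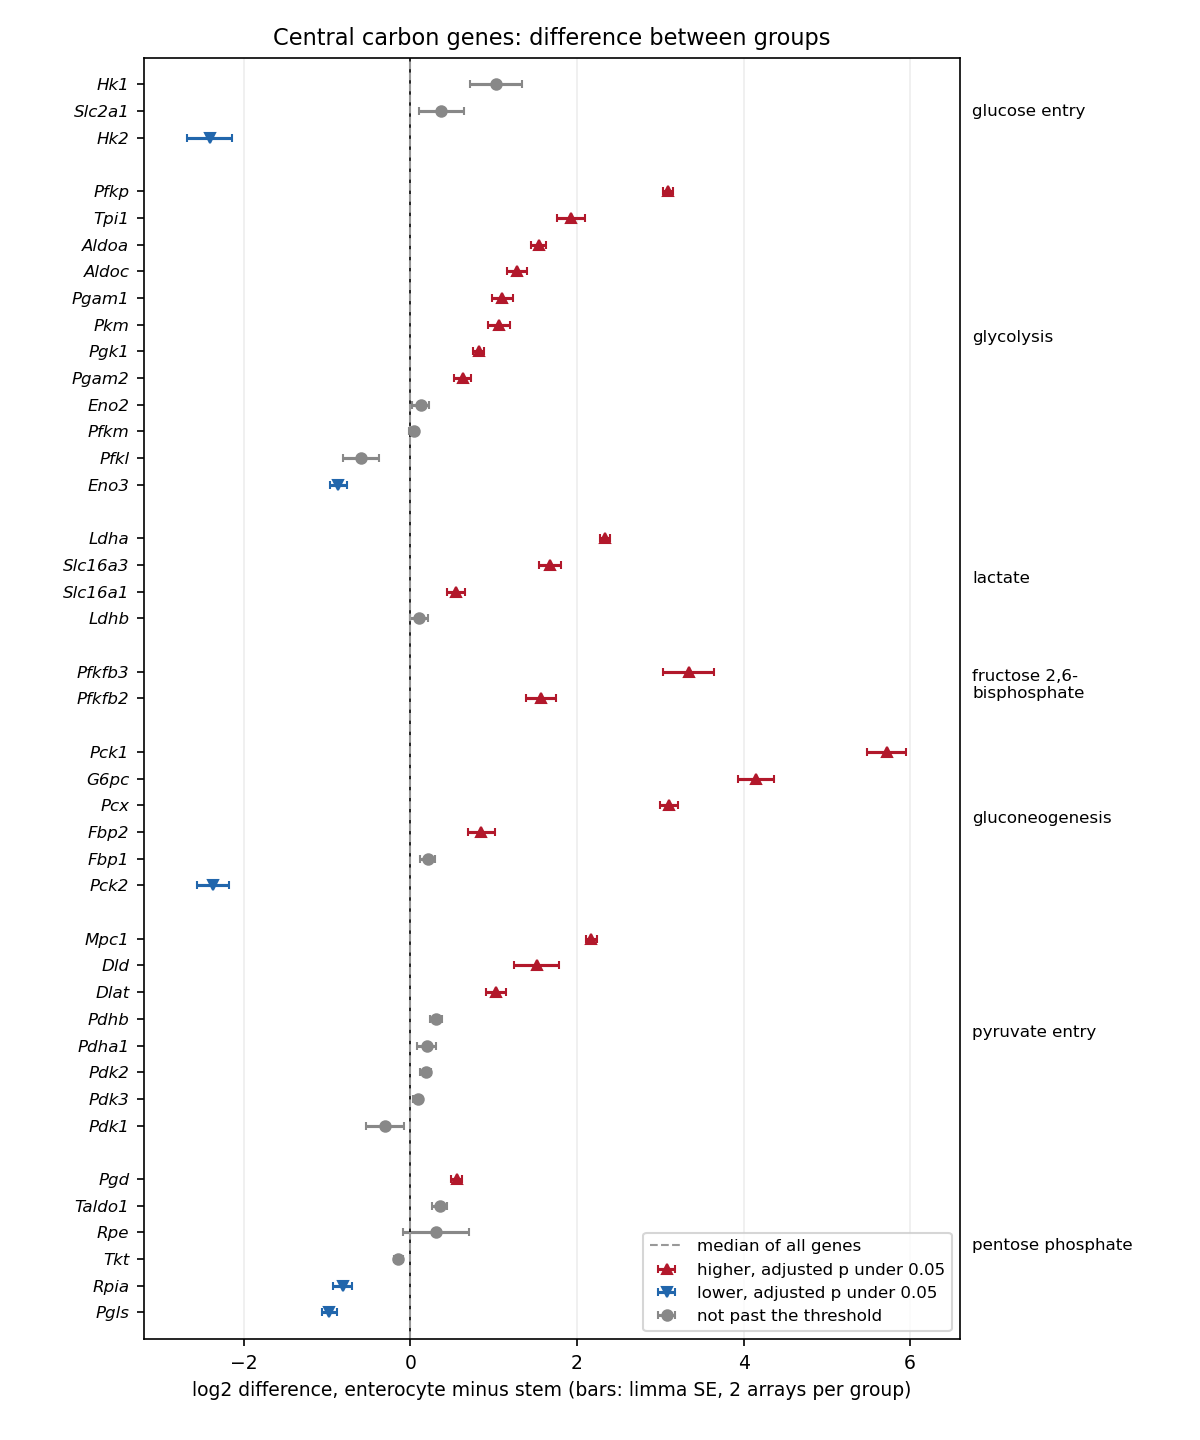
Log2 difference, enterocyte minus stem, for the 41 measured genes by role, with limma's standard error as bars (2 arrays per group). Triangles passed the threshold and grey circles did not: Pck1 at 5.72 and G6pc at 4.15, both below background in the stem arrays, stand highest, and Hk2 at -2.41 and Pck2 at -2.37 lowest.

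The scaling turned the sign of 5 genes, none of which had passed. These were Pfkm, Eno2, Ldhb and Pdk3 under reference gene centring and Tkt under quantile normalization.

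The genes named by the labels and markers of cell types were read first. Atoh1 was at log2 7.43 and 7.71 in the stem arrays and at 5.06 and 5.28 in the enterocyte arrays, below the background level. That level, log2 6.09, is the 90th percentile of 24 genes of other organs. Here and below, where a group lay under it, the fold is written "at least" and is computed with each array raised to that level. Atoh1 was at least 2.79-fold lower (-2.40 ± 0.15 SE, adjusted p = 0.0042 by limma). The groups differ in cell type as well as in genotype, so this difference cannot check the knockout by itself. Lgr5, the marker of the sort, was at 11.33 and 10.96 in stem and at 6.92 and 6.09 in enterocyte arrays, 24.9-fold lower (-4.64 ± 0.36 SE, adjusted p = 0.0058 by limma). Intestinal stem cell markers were lower in 9 of 9 cases, proliferation markers were lower in 9 of 9, and enterocyte markers were higher in 14 of 14. Lymphocyte markers were higher in 10 of 13 cases. Their summed intensity was 693 and 959 (stem) against 8734 and 11761 (enterocyte), with Cd8b1, Cd2 and Thy1 below background in both groups. Tuft cell markers were higher in 4 of 6 (summed intensity 627 to 1003 in stem and 3514 to 5319 in enterocyte arrays). Paneth cell markers were lower in 3 of 5, with sums of 34859 and 48525 (stem) against 685 and 6102 (enterocyte). Goblet cell markers were lower in 6 of 7 and higher in 1, with sums of 29693 and 31484 against 12450 and 12302. Muc13, the higher one, made up most of the enterocyte sum, and without it the sums were 22805 and 24795 against 495 and 674. Enteroendocrine markers were lower in 7 of 10, with sums of 9203 and 11533 against 774 and 814. These cells also use central carbon genes, and their part in the differences below was not tested. In bulk RNA, fewer cells of a type and less RNA per cell cannot be told apart.

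The upstream sequences of the genes with the largest fitted differences in each direction, Pck1 and G6pc against Hk2 and Pck2, are shown to set them side by side. For G6pc the order rests on stem levels below background, and its lower bound of 6.57-fold is under the 8.58-fold of Pcx and the 8.55-fold of Pfkp. Each is the 150 bases before the transcription start in RefSeq (build GRCm38.p6), 5′ to 3′ on the strand of the gene. Pck1 lies at chr2:173152923-173153072 on the plus strand, G6pc at chr11:101367566-101367715 on the plus strand, Hk2 at chr6:82774455-82774604 on the minus strand and Pck2 at chr14:55540116-55540265 on the plus strand. Capitals mark matches on either strand to the motifs searched: the E-box CACGTG of Myc and ChREBP, the hypoxia core ACGTG, the cAMP element TGACGT, the TATA box TATAAA, the GC box GGGCGG of Sp1, the CDX motif TTTATG, the HNF1 core GTTAAT and the HNF4 core CAAAGT. Every E-box also holds the hypoxia core, and the hypoxia core and the cAMP element can overlap.
Pck1: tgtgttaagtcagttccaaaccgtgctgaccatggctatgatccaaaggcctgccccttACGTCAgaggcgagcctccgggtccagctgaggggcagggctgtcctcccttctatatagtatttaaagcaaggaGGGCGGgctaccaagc
G6pc: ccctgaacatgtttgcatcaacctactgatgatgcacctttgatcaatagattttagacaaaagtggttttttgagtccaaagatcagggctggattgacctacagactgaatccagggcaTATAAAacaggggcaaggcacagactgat
Hk2: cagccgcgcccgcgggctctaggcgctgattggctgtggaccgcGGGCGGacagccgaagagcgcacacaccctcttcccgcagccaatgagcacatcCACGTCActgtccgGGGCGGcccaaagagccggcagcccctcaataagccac
Pck2: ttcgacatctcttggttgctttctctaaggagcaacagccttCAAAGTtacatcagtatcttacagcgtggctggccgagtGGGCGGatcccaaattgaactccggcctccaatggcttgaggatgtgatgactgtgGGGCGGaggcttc
Pck1 holds the cAMP element (ACGTCA on this strand, from base -91), for which this promoter is a textbook case, and a GC box. G6pc holds a TATA box from base -29 and none of the other motifs. Hk2 has 2 GC boxes and an overlapping hypoxia core and cAMP element from base -52. Pck2 has 2 GC boxes and an HNF4 core. A match is a description of letters and not of binding.

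Over windows of 300 bases (250 before to 50 after the start), the 41 genes had 58 promoters in RefSeq, and 32851 promoters were searched in all. The hypoxia core was in 39.7% of the 58 and in 19.6% of all promoters. It was in 15 of the 32 promoters of genes called higher, 1 of the 5 of genes called lower and 7 of the 21 of genes that did not pass. The GC box was in 56.9% against 35.7%, the E-box in 13.8% against 7.15%, and the cAMP element in 13.8% against 7.51%. The HNF4 core was in 15.5% against 14.4%. The TATA box was in 5.17% against 13.6%, the CDX motif in 3.45% against 11.9% and the HNF1 core in 5.17% against 7.1%. The other motifs are counted here in the same order: 32 promoters of genes called higher, 5 lower and 21 not passing. The GC box was in 20, 4 and 9, the HNF4 core in 5, 3 and 1 and the cAMP element in 6, 1 and 1. The E-box was in 6, 0 and 2, the TATA box in 1, 0 and 2, the CDX motif in 0, 0 and 2 and the HNF1 core in 2, 0 and 1. Several promoters belong to the same gene, and these shares are a description with no test.

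The measured glucose entry genes of the list, Slc2a1, Hk1 and Hk2, did not move one way. Of the 3, 1 fell, 0 rose and the other 2 missed the threshold, beside 18.2% higher and 22.4% lower over all genes. The list leaves out the glucose transporter genes Slc2a2 and Slc5a1, counted above as enterocyte markers. These were higher, by 6.34 ± 0.23 SE and 3.52 ± 0.11 SE, and were named here after their values were seen. Hk2, the inducible hexokinase of proliferating and insulin-responsive tissues, was at log2 9.77 and 9.65 in the stem arrays and at 7.63 and 6.96 in the enterocyte arrays. The groups were separate, and the fall was 5.32-fold (-2.41 ± 0.27 SE, adjusted p = 0.0107 by limma). Hk1, the housekeeping hexokinase, was at 6.21 and 6.53 in stem and at 7.75 and 7.04 in enterocyte arrays. The groups did not overlap, but the difference did not pass (1.03 ± 0.31 SE, adjusted p = 0.086). It passed under reference gene centring (0.90, adjusted p = 0.0392), quantile normalization (1.11, 0.0343) and with dim genes left out (1.03, 0.0353). Slc2a1, which encodes the glucose transporter GLUT1, was at 9.02 and 9.29 in stem and at 9.83 and 9.22 in enterocyte arrays. These overlap, and the difference was 0.37 ± 0.27 SE (adjusted p = 0.372).

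Glycolytic enzymes below hexokinase were mostly higher in enterocytes. Among 12 measured genes, 8 rose, 1 fell and 3 missed the threshold, beside 18.2% higher and 22.4% lower over all genes. The median was 0.94. The largest difference was in Pfkp, the platelet type of phosphofructokinase, the committed step. It was at 8.42 and 8.36 in the stem arrays and at 11.52 and 11.46 in the enterocyte arrays. Replicates lay within 0.1 of each other, and Pfkp was 8.55-fold higher (3.10 ± 0.06 SE, adjusted p = 0.0026 by limma). The other phosphofructokinase genes did not pass. Pfkl, the liver type, was at 8.42 and 8.52 against 8.14 and 7.61 (-0.59 ± 0.22 SE), and Pfkm, the muscle type, at 7.48 and 7.48 against 7.56 and 7.48. Under reference gene centring Pfkl passed as lower (-0.72, adjusted p = 0.0291).

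Among the later steps, Tpi1, triose phosphate isomerase, was at 11.87 and 11.47 in stem and at 13.65 and 13.54 in enterocyte arrays, a 3.80-fold rise (1.93 ± 0.17 SE). Aldoa, the main aldolase of glycolysis, was at 11.21 and 11.09 against 12.76 and 12.62, a 2.91-fold rise (1.54 ± 0.09 SE). In both genes the lowest enterocyte array stood more than a log2 unit over the highest stem array. Aldoc, a second aldolase, rose 2.42-fold, and Pgam1, phosphoglycerate mutase, 2.15-fold. Pkm, pyruvate kinase of most tissues, rose 2.10-fold, and Pgk1, phosphoglycerate kinase, 1.76-fold. Their adjusted p ranged from 0.0068 to 0.0128 by limma. Eno3, the muscle type of enolase, fell: it was at 7.74 and 7.87 in stem and at 6.84 and 7.04 in enterocyte arrays (-0.86 ± 0.11 SE, adjusted p = 0.0124). Pgam2, the muscle mutase, and Eno2, the neuronal enolase, lay below background in all arrays. The call of Pgam2 as higher (adjusted p = 0.0233) is thus between levels under background, and no fold is given.

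**Figure D2:**
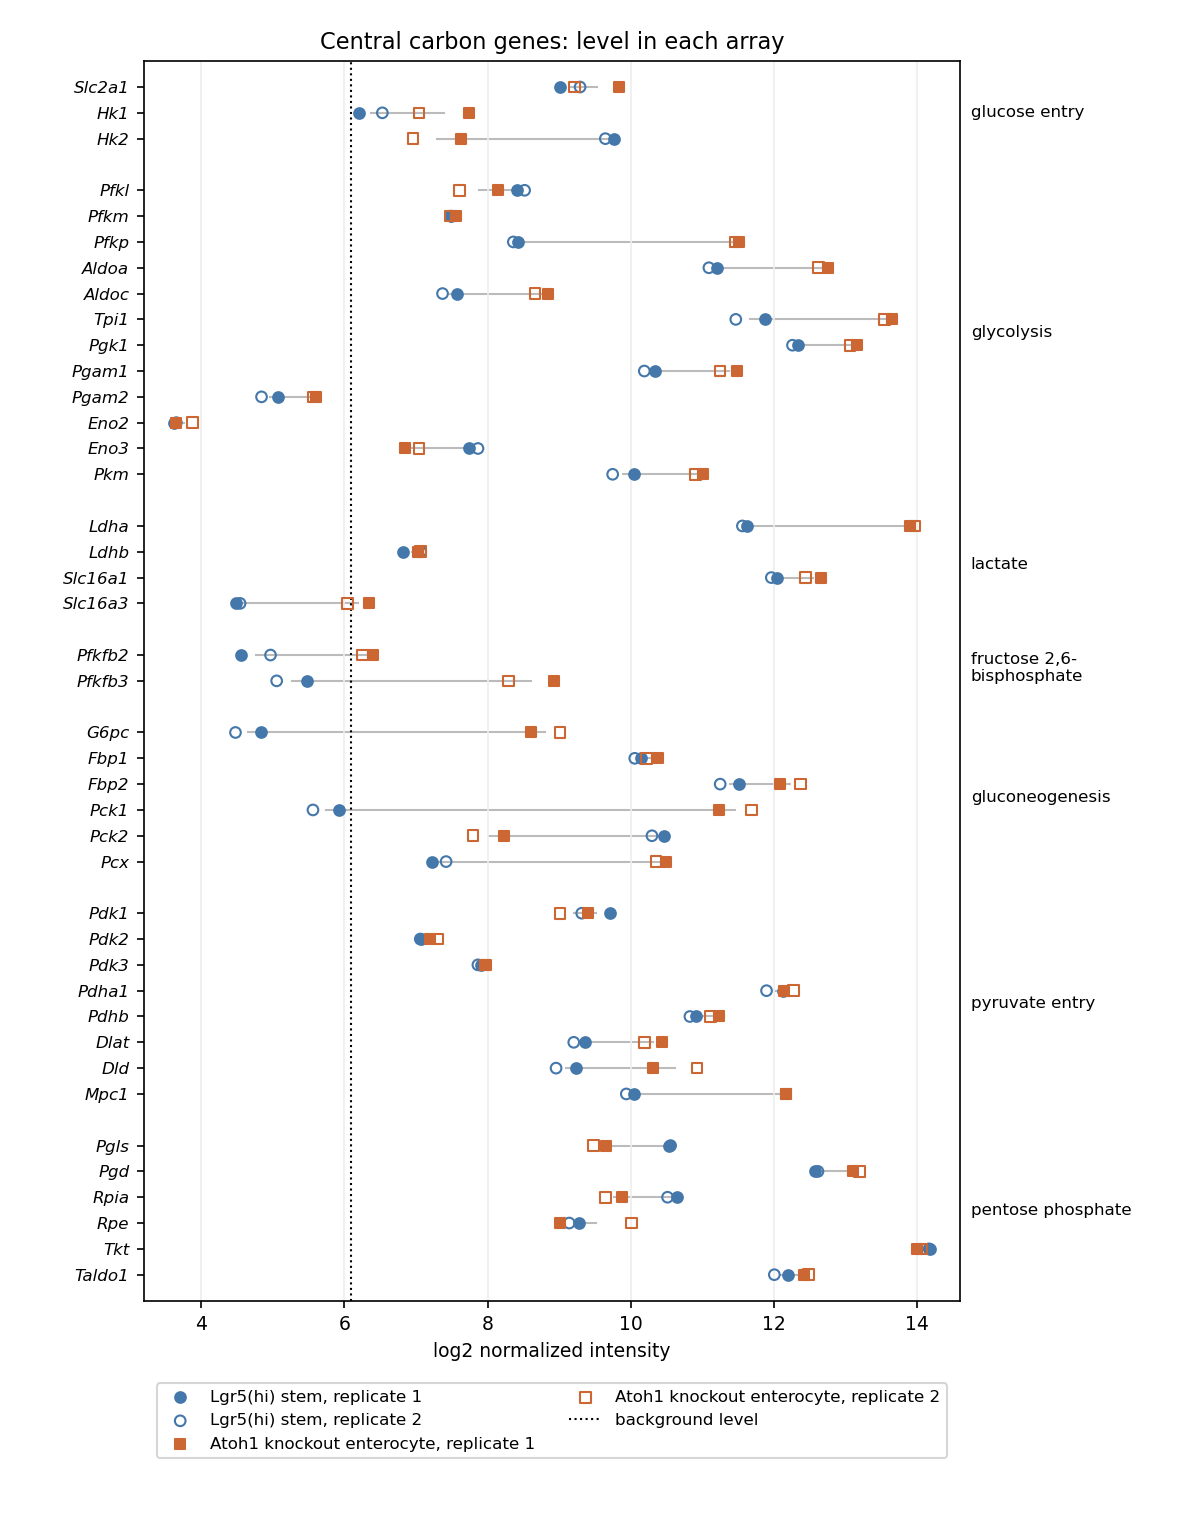
Log2 normalized intensity of the 41 genes in each of the 4 arrays, grouped by role; circles are stem arrays, squares enterocyte arrays, and grey lines join the group means. The dotted line is the background level of 6.09. Levels of different genes come from different probes and are not comparable with each other. In Pfkp, Ldha, Mpc1, Pcx and Pck1 the groups lie far apart against the replicate spread, while Slc2a1, Pdk1 and Rpe overlap.

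Gapdh, the dehydrogenase between triose phosphate and phosphoglycerate, was read by 3 control probe sets along its transcript. The 3′ set was at 12.69 and 12.64 in stem and at 13.88 and 13.96 in enterocyte arrays, a difference of 1.25. The middle set was at 11.58 and 11.45 against 13.89 and 13.99, a difference of 2.43. The 5′ set was at 11.00 and 10.72 against 13.73 and 13.79, a difference of 2.90. All 3 were higher in both enterocyte arrays, and the size grew towards the 5′ end. With control probe sets kept in the fit, an alternative added after the data were seen, Gapdh was 1.25 ± 0.06 SE on its 3′ set (adjusted p = 0.00354 by limma).

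The same direction stood in Actb and Tfrc, while the values of Pcx went the other way. The 3′ minus 5′ difference of Gapdh was 1.70 and 1.92 (stem) against 0.15 and 0.17 (enterocyte). For Actb it was 2.06 and 2.10 against 0.56 and 0.50. In these transcripts the stem arrays thus gave less signal at the 5′ end relative to the 3′ end. For Tfrc it was 1.08 and 0.76 against 0.24 and -0.09, with its 5′ set near background. For Pcx, pyruvate carboxylase, the 3′ minus 5′ difference was larger in enterocyte arrays, at 3.18 and 3.16 against 1.18 and 0.94. Its 5′ set was at 6.35 and 6.59 in stem arrays, near the background of 6.09, and at 7.10 and 7.09 in enterocyte arrays. Its 3′ set was at 7.53 and 7.54 in stem arrays and at 10.28 and 10.24 in enterocyte arrays. Whether the Pcx values show a gradient of the opposite direction was not tested. The gradient along the transcripts of Gapdh and Actb thus moved with the groups. The hybridisation spike-ins bioB, bioC and bioD differed by -2.55 to -0.58 between the groups, and cre by -0.052 to -0.00094. The poly-A spike-ins dap, lys, phe and thr differed by -0.80 to 1.88, and a set of thr gave 1.88 at its 5′ end and -0.21 at its 3′ end, the direction of the gradient in Gapdh and Actb. How far this enters the differences of the other genes was not tested.

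**Figure D3:**
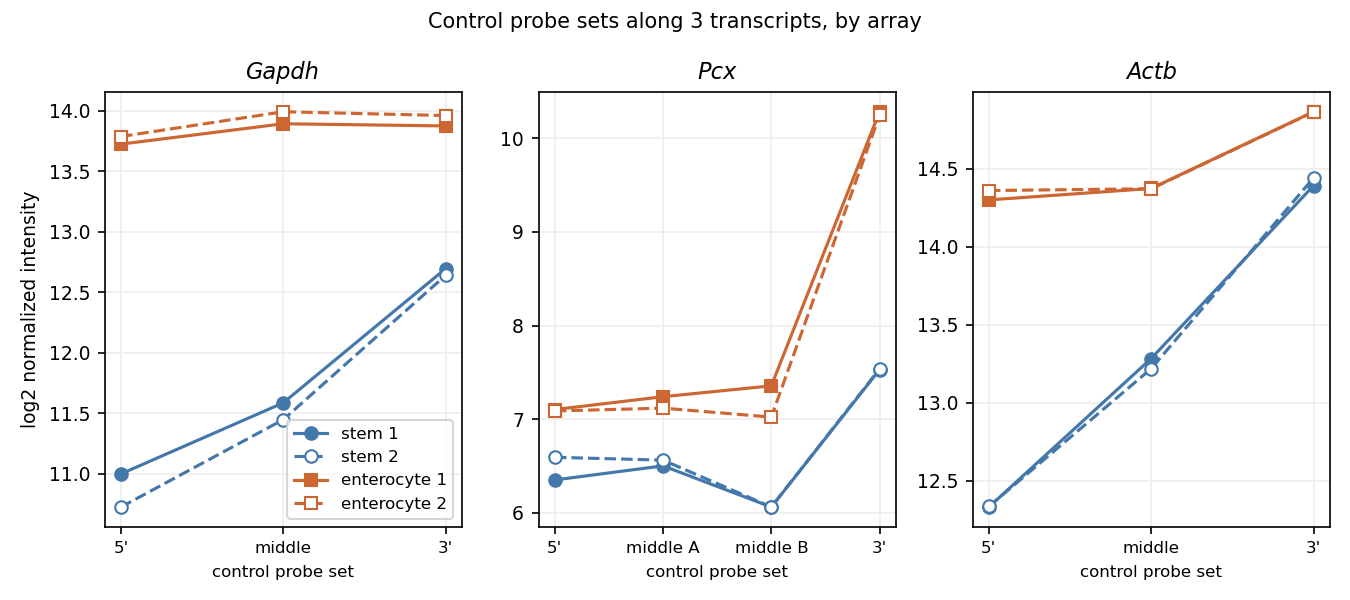
Log2 normalized intensity of the control probe sets of Gapdh, Pcx and Actb from the 5′ to the 3′ end of the transcript, a line per array, with a separate vertical scale in each panel. In Gapdh and Actb the stem arrays (circles) climb from 5′ to 3′ while the enterocyte arrays (squares) are flatter. In Pcx the enterocyte arrays climb more, and the 5′ and middle sets of the stem arrays lie near background.

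Genes of lactate handling were higher in 3 of 4 cases, with 0 lower, beside 18.2% higher and 22.4% lower over all genes. Ldha, the lactate dehydrogenase subunit that favours lactate formation, was at 11.63 and 11.56 in stem and at 13.90 and 13.96 in enterocyte arrays. It was 5.06-fold higher, far beyond the replicate spread (2.34 ± 0.06 SE, adjusted p = 0.0026 by limma). Ldhb, the heart-type subunit, was at 6.82 and 7.07 against 7.03 and 7.07, and the groups overlapped. Slc16a1, the monocarboxylate transporter MCT1, was at 12.04 and 11.96 against 12.66 and 12.44, a 1.46-fold rise (0.55 ± 0.10 SE, adjusted p = 0.0318). Slc16a3, which encodes the lactate exporter MCT4, was at 4.49 and 4.54 against 6.34 and 6.05. Its enterocyte mean stood barely over background, so the fold is at least 1.09 (measured difference 1.68 ± 0.13 SE).

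The bifunctional enzymes that set fructose 2,6-bisphosphate, the strongest activator of phosphofructokinase, rose in 2 of 2 measured cases. Over all genes 18.2% rose. Pfkfb3, the inducible form with high kinase activity, was at 5.48 and 5.05 in stem and at 8.92 and 8.29 in enterocyte arrays. It passed from below to above background, at least 5.73-fold higher (3.34 ± 0.30 SE, adjusted p = 0.0073 by limma). Pfkfb2, the heart form, was at 4.55 and 4.97 against 6.41 and 6.25, at least 1.18-fold higher (1.57 ± 0.18 SE). A dimmer probe set of Pfkfb3 gave 0.31 and did not pass.

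Gluconeogenic genes held the largest rise of the set, of Pck1, and one of its largest falls, of Pck2. There were 4 rises, 1 fall and 1 gene short of the threshold among 6 genes, beside 18.2% rises and 22.4% falls over all genes. The median was 1.98, or 1.78 with levels raised to background. Pck1, the cytosolic phosphoenolpyruvate carboxykinase, was at 5.92 and 5.56 in stem and at 11.23 and 11.69 in enterocyte arrays. It was at least 41.4-fold higher (5.72 ± 0.24 SE, adjusted p = 0.003 by limma). G6pc, the catalytic subunit of glucose-6-phosphatase, was at 4.84 and 4.48 against 8.60 and 9.01, at least 6.57-fold higher (4.15 ± 0.22 SE, adjusted p = 0.0036). Both lay below background in the stem arrays. Pcx, which makes oxaloacetate from pyruvate, was at 7.22 and 7.42 against 10.49 and 10.35, an 8.58-fold rise (3.10 ± 0.11 SE). The control probe sets of Pcx gave differences of 2.73 at the 3′ end, 1.13 and 0.65 in the middle and 0.62 at the 5′ end, all in the same direction. The middle and 5′ sets lay near background in the stem arrays.

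Pck2, the mitochondrial carboxykinase, moved against Pck1. It was at 10.47 and 10.30 in stem and at 8.24 and 7.79 in enterocyte arrays, 5.16-fold lower (-2.37 ± 0.19 SE, adjusted p = 0.0063 by limma), with -2.26 on its other probe set. Of the fructose bisphosphatases, Fbp2, the muscle form, was at 11.51 and 11.25 against 12.09 and 12.37, a 1.80-fold rise (0.85 ± 0.16 SE, adjusted p = 0.0308). That call was lost with the replicate number as a block (adjusted p = 0.0729). Fbp1, the liver form, was at 10.14 and 10.06 against 10.39 and 10.22 and did not pass (0.21 ± 0.09 SE).

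Pyruvate entry rose in part. Among 8 measured genes, 3 rose, 0 fell and 5 missed the threshold, beside 18.2% higher and 22.4% lower over all genes. The median was 0.25. Mpc1, a subunit of the mitochondrial pyruvate carrier, was at 10.05 and 9.94 in stem and at 12.17 and 12.17 in enterocyte arrays. The enterocyte replicates were nearly equal, and Mpc1 was 4.51-fold higher (2.17 ± 0.07 SE, adjusted p = 0.0026 by limma). Dld, the dihydrolipoamide dehydrogenase shared by several mitochondrial complexes, was at 9.24 and 8.96 against 10.31 and 10.93, a 2.86-fold rise (1.52 ± 0.27 SE, adjusted p = 0.0277). It did not pass with the replicate block (adjusted p = 0.0587). Dlat, the acetyltransferase core of pyruvate dehydrogenase, was at 9.37 and 9.20 against 10.43 and 10.19, a 2.04-fold rise (1.03 ± 0.12 SE, adjusted p = 0.012).

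The other 5 genes of this role, which leaves out Pdk4, did not pass. Pdhb and Pdha1, of its first component, differed by 0.31 ± 0.07 SE (adjusted p = 0.055 by limma) and 0.19 ± 0.12 SE. Pdk1, Pdk2 and Pdk3, kinases that switch the complex off, differed by -0.30 ± 0.22 SE, 0.18 ± 0.07 SE and 0.09 ± 0.05 SE. Pdk1 was at 9.71 and 9.32 in stem and at 9.40 and 9.01 in enterocyte arrays, so that the groups overlapped.

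The pentose phosphate genes went both ways. Of 6 measured, 1 rose, 2 fell and 3 did not pass, at a median of 0.08 that became -0.05 under reference gene centring. In percent this is 16.7 higher and 33.3 lower, beside 18.2 and 22.4 over all genes. Pgls, the lactonase of the oxidative arm, was at 10.53 and 10.56 in stem and at 9.66 and 9.48 in enterocyte arrays, 1.96-fold lower (-0.97 ± 0.09 SE, adjusted p = 0.0071 by limma). Pgd, the next enzyme of that arm and a source of NADPH, was at 12.57 and 12.62 against 13.10 and 13.19, a 1.47-fold rise (0.55 ± 0.06 SE, adjusted p = 0.011). Adjacent steps thus differed in direction. Rpia, ribose-5-phosphate isomerase, was at 10.64 and 10.51 against 9.88 and 9.65, 1.76-fold lower (-0.82 ± 0.12 SE, adjusted p = 0.0165).

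In the remaining non-oxidative arm the differences were small. Tkt, transketolase, was at 14.18 and 14.17 in stem and at 14.00 and 14.06 in enterocyte arrays, and its difference of -0.14 ± 0.06 SE turned to 0.05 under quantile normalization. Taldo1, transaldolase, differed by 0.35 ± 0.09 SE (adjusted p = 0.0659 by limma). Rpe, the epimerase, was at 9.28 and 9.14 against 9.02 and 10.01. The stem arrays lay between the 2 enterocyte arrays, and no order could be read.

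Paralogs were compared by limma on the log2 ratio of the 2 genes in each array, which asks whether one changed more than the other and not which is more abundant. Of 12 measured pairs 7 passed, but in 4 of these a gene lay below background. Both genes were above background in 8 pairs, of which 3 passed. Over all genes 40.6% were called at this threshold, so the number of pairs is not read as a trait of the set. The ratio of Hk1 to Hk2 rose by 3.44 ± 0.18 SE (adjusted p = 0.00362), although Hk1 alone did not pass. The ratio of Pfkl to Pfkp changed by -3.69 ± 0.20 SE (adjusted p = 0.00376), towards the platelet form. The ratio of Ldha to Ldhb rose by 2.24 ± 0.13 SE (adjusted p = 0.00406). Pck1 lay below background in the stem arrays, and its ratio to Pck2 rose by at least 7.74 with Pck1 raised to that level. For Slc16a1 to Slc16a3 the change was -1.13 as measured and 0.42 with Slc16a3 raised to background, so no direction can be read. Nor is a size given for Pfkfb2 to Pfkfb3, both below background in the stem arrays, or for Pgam1 to Pgam2, with Pgam2 below it in all arrays. The pairs Pfkl and Pfkm, Aldoa and Aldoc, Fbp1 and Fbp2, Pdk1 and Pdk2, and Pdk1 and Pdk3 did not pass, with adjusted p from 0.0524 to 0.267. Without either stem array 0 pairs passed, and without either enterocyte array 2 passed.

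Probe sets of the same gene mostly pointed one way. Of 20 genes with several probe sets, 0 had probe sets past the threshold in opposite directions in a fit over 20393 probe sets, and 6 had probe sets of differing sign (Aldoc, Ldhb, Pck1, Pdk1, Pfkl and Rpe). The second probe set of Pck1 was at 3.84 and 3.88 in stem and at 3.80 and 3.73 in enterocyte arrays, below background throughout. That of Aldoc was also below background, with a difference of -0.30. The 4 probe sets of Aldoa gave 1.08 to 1.88, the 3 of Tpi1 0.68 to 1.93, and both of Pfkp 2.58 and 3.10. Pgd gave 0.45 to 0.55 on 3 probe sets and 1.75 on the fourth.

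**Figure D4:**
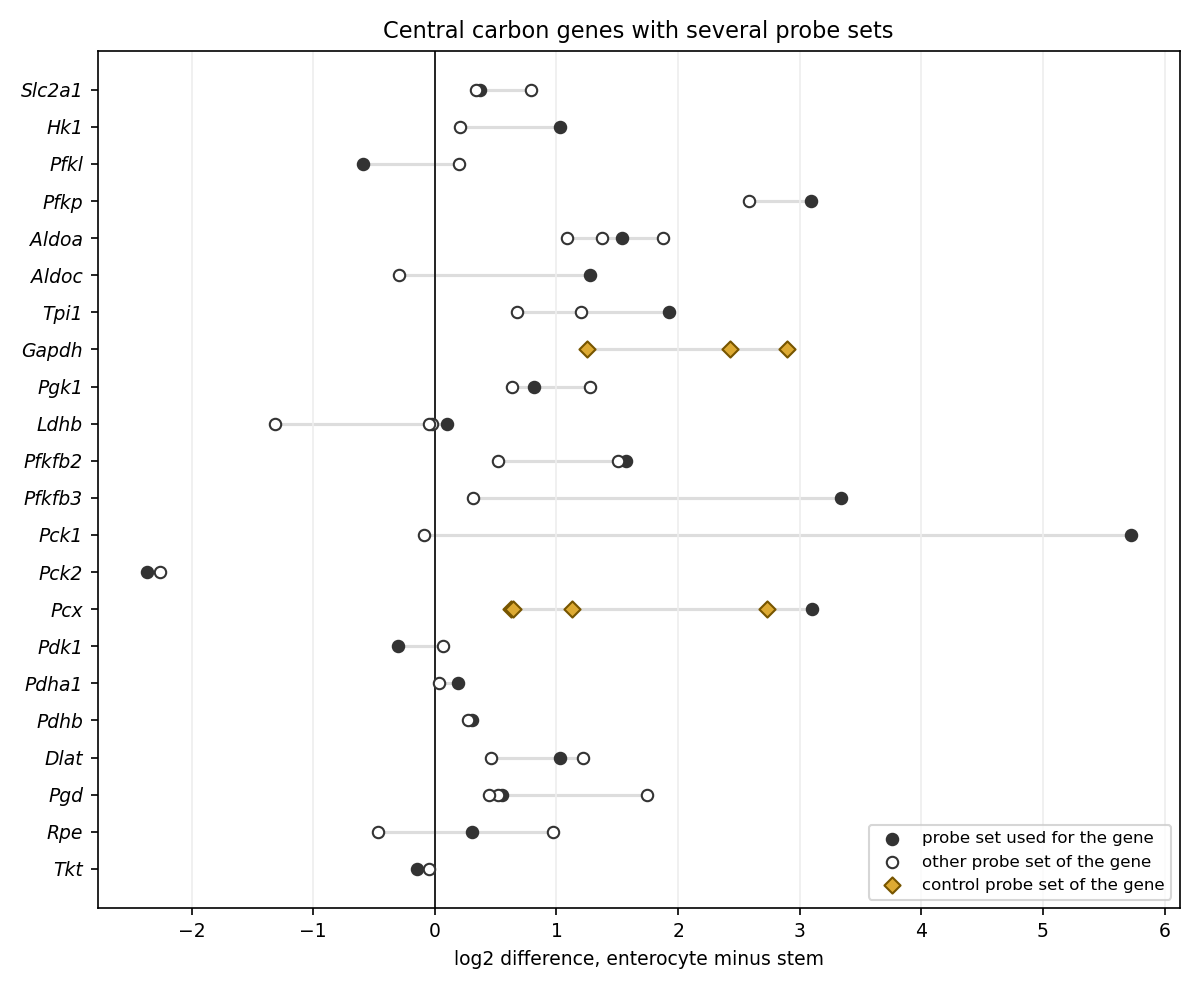
Log2 difference, enterocyte minus stem, on every probe set of the genes that have several. Filled circles are the probe sets used, open circles the others, and diamonds the control probe sets of Gapdh and Pcx. The sign is shared by all probe sets of Aldoa, Tpi1, Pgk1, Pfkp, Pck2 and Pgd, and Pck1 has a second probe set near 0, at -0.09, that is below background.

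Other genes of central carbon metabolism were also more often higher than lower. Of 37 measured out of 51, 18 were higher, 4 lower and 15 did not pass, beside 18.2% higher and 22.4% lower over all genes, at a median of 0.52. The malic enzyme gene Me1, which makes NADPH and pyruvate in the cytosol, was at 6.62 and 6.39 in stem and at 12.01 and 12.30 in enterocyte arrays, a 50.3-fold rise (5.65 ± 0.16 SE, adjusted p = 0.0026 by limma). Got1, the cytosolic aspartate aminotransferase of the malate-aspartate shuttle, was at 7.73 and 7.56 against 11.71 and 11.58, a 16.1-fold rise (4.00 ± 0.10 SE, adjusted p = 0.0026). Hkdc1, a hexokinase-like gene, was at 8.50 and 8.25 against 11.90 and 11.83, an 11.2-fold rise (3.49 ± 0.11 SE, adjusted p = 0.0026). Its direction was thus opposite to that of Hk2.

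Pygl, the liver glycogen phosphorylase, was at 6.50 and 5.93 in stem and at 9.61 and 8.54 in enterocyte arrays, a 7.27-fold rise (2.86 ± 0.48 SE, adjusted p = 0.0239 by limma). Gpd1, the cytosolic glycerol phosphate dehydrogenase, was at 8.87 and 8.52 against 11.04 and 11.02, a 5.04-fold rise (2.33 ± 0.14 SE, adjusted p = 0.0044). Pklr, the pyruvate kinase of liver and red cells, was at 8.08 and 8.02 against 10.39 and 10.25, a 4.82-fold rise (2.27 ± 0.08 SE, adjusted p = 0.0027). In all 3 the groups were separate. For Gpd1 the dimmest probe set gave -0.021. Slc37a4, the transporter that feeds glucose-6-phosphatase, rose 3.23-fold, while G6pc3, its ubiquitous catalytic subunit, fell 1.97-fold. Pdk4, a pyruvate dehydrogenase kinase induced by fasting, was at 6.73 and 7.25 in stem and at 8.71 and 10.32 in enterocyte arrays. The groups did not overlap, but the enterocyte replicates differed by more than a log2 unit and the difference did not pass (2.53 ± 0.67 SE, adjusted p = 0.0652). Slc37a4, G6pc3 and Pdk4 were chosen after their values were seen.

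Regulators of these pathways went both ways. Of 26 measured out of 30, 6 were higher, 9 lower and 11 did not pass, at a median of -0.06. In percent this is 23.1 higher and 34.6 lower, beside 18.2 and 22.4 over all genes. Egln3, the prolyl hydroxylase that is a target of hypoxia-inducible factors, was at 4.59 and 4.49 in stem and at 12.42 and 12.13 in enterocyte arrays, at least 72.8-fold higher (7.74 ± 0.13 SE, adjusted p = 0.0024 by limma). Ppargc1a, a coactivator that drives mitochondrial and gluconeogenic genes, was at 7.53 and 7.71 against 9.74 and 10.73, a 6.11-fold rise (2.61 ± 0.40 SE, adjusted p = 0.0195 by limma). Mlxipl, which encodes the glucose-responsive factor ChREBP, was at 11.66 and 11.90 against 9.64 and 9.68, 4.34-fold lower (-2.12 ± 0.11 SE, adjusted p = 0.0034). Myc, an activator of glycolytic and growth genes, was at 10.56 and 10.43 against 8.71 and 8.33, 3.93-fold lower (-1.97 ± 0.17 SE, adjusted p = 0.0065). In these 4 genes the groups were separate in every array. Hif1a, of the hypoxia response, rose 2.09-fold (adjusted p = 0.0354), and Hnf4a, a factor of liver and intestine, did not pass (0.21 ± 0.09 SE). Hif1a and Hnf4a were chosen after their values were seen.

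**Figure D5:**
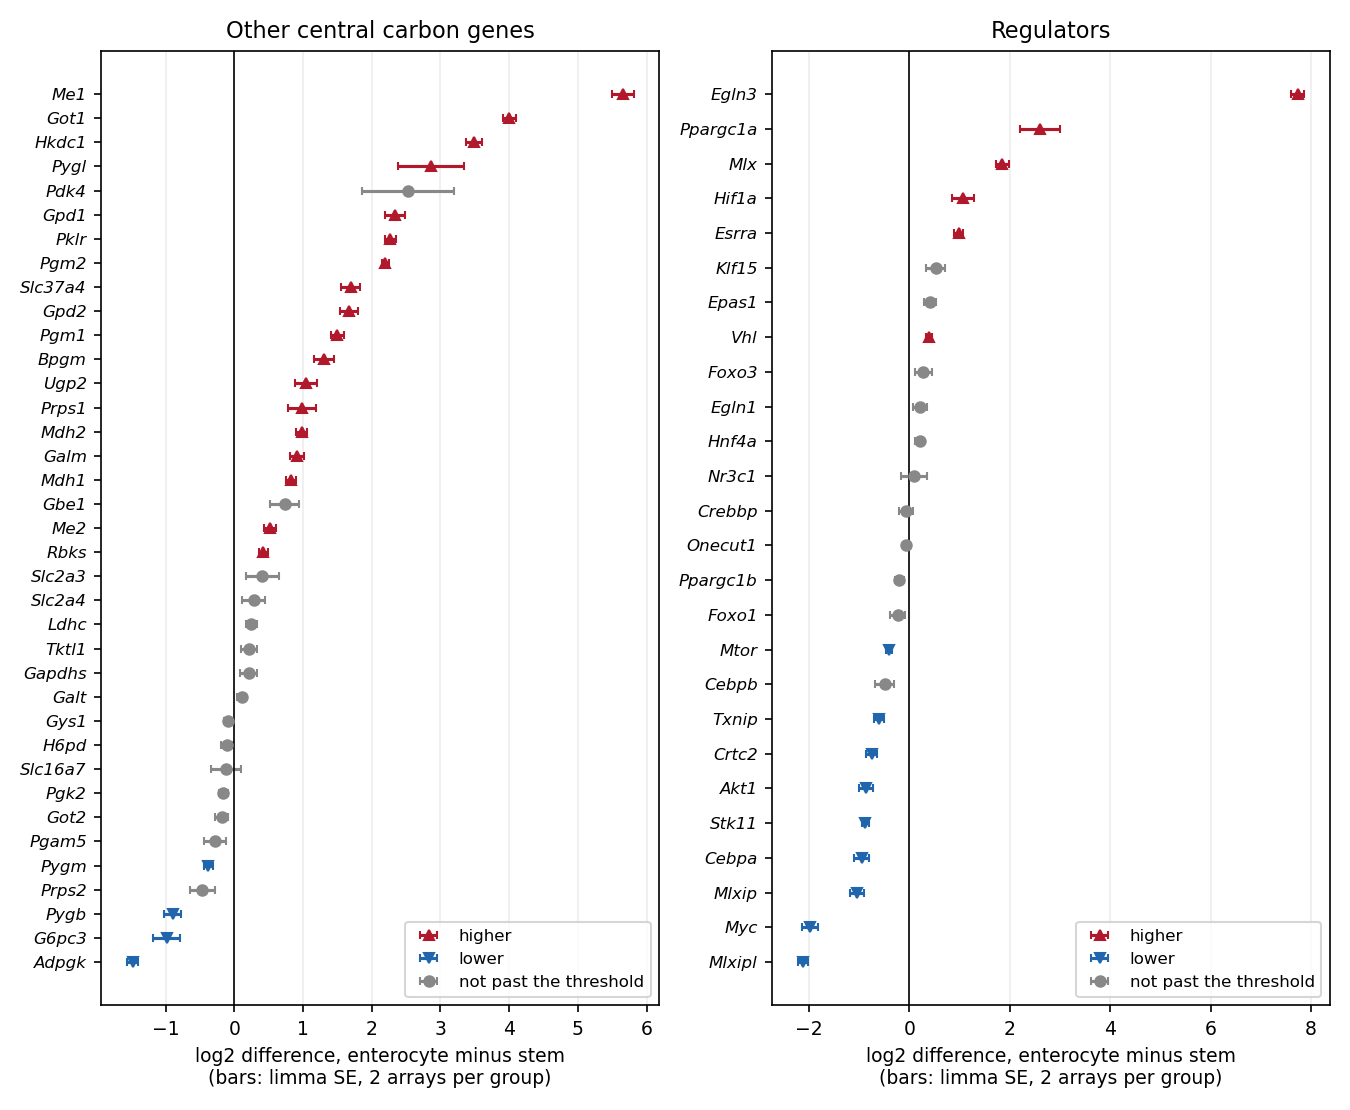
Log2 difference, enterocyte minus stem, with limma's standard error as bars, for 37 other central carbon genes (left) and 26 regulators (right), 2 arrays per group. Triangles passed the threshold and grey circles did not. Me1 at 5.65 and Egln3 at 7.74 stand highest, and Mlxipl at -2.12 lowest.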

How the data were processed

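The authors deposited a normalized linear intensity for each probe set of 4 Affymetrix arrays. RMA is named, per the submitters' processing notes, without a version; no source used here says which arrays were normalized together. Array medians were 102.4 to 110.6 intensity units, and the number of arrays limits the precision.

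Here log2 was taken with no pseudocount, and 64 control probe sets were left out of 22690. The platform annotation listed 21084 probe sets, of which 20393 had 1 symbol, 691 several and 0 none, and 1606 were not listed. Entrez identifiers of 20364 matched RefSeq, 29 did not, and 0 symbols changed. The brightest probe set per gene gave 12393 genes, and differences were tested two-sided with limma 3.58.1 (lmFit, eBayes; R 4.3.3) with 2 residual degrees of freedom. In 209 genes replicates were identical in both groups, which lowers the measured spread. Columns with no sample numbered 0. Steps were tested on simulated data.

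The genes and lists were chosen with earlier results of these data known. Full values are given for Slc2a1, Hk1 and Hk2, for up to 3 genes per role with the largest difference past the threshold and 1 in the other direction, for the 6 other central carbon genes and 4 regulators with the largest difference among those past the threshold, and for Atoh1 and Lgr5; genes named beyond that are for completeness of the set. Alternatives covered a replicate block, each array left out, probe set choice, scaling, dim genes, a pseudocount of 32, a variance trend and array weights.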

Additional observations from a re-analysis of the deposited data

Results flagged for a closer look

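The control probe sets of Gapdh stood outside the comparison of all genes and carried a signal that differed between the groups. The difference, enterocyte minus stem, was 1.25 on the 3′ set, 2.43 on the middle set and 2.90 on the 5′ set (log2). No group has enough arrays for a test of single outlying samples, and the study has only 1 contrast.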

How the results depend on the processing

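Under reference gene centring (9 of 12 reference genes measured, 5 of which were themselves called) the median of all genes moved to -0.13, and under quantile normalization to -0.02. All 26 calls of the set were kept under both, as they were with the mean over probe sets, a pseudocount of 32, a variance trend and array weights. With the replicate block 19 genes of the set stayed higher and 5 lower, and over all genes 2010 were higher and 2557 lower. The replicate numbers share no stated origin, and the deviations of same-numbered arrays correlated at 0.05 across genes. Leaving out 1 array at a time gave 0 to 6 higher and 0 to 3 lower genes in the set, 0 to 663 and 0 to 1058 over all genes, 0 to 8 and 0 to 1 among other central carbon genes, 0 to 2 and 0 to 4 among regulators, and 0 to 2 paralog pairs. The lone array is then assumed to vary like the other group. Without probe sets marked _x_, _s_ or _a_, which leaves 29 genes of the set, 13 were higher, 5 were lower and 3 pairs passed. Of 10529 genes in all, 1838 were higher and 1999 lower. The median of the set was then 0.31. On the genes left, the largest moves by role were from 0.37 to -0.81 (glucose entry), 1.98 to 0.85 (gluconeogenesis) and 0.08 to -0.43 (pentose phosphate). With the dimmest probe set per gene, tried after the data were seen, 17 genes of the set were higher and 6 lower. Over all genes 1950 were higher and 1943 lower. The median of the set was 0.31 in place of 0.55. The largest moves by role were from 1.98 to 0.53 (gluconeogenesis), 2.45 to 0.91 (fructose 2,6-bisphosphate) and 0.08 to -0.26 (pentose phosphate). Pentose phosphate then had 3 genes lower. Among regulators 5 were lower. Signs turned in genes that had not passed: Ldhb (-0.018 to 0.22 with 1 array left out, the first without stem replicate 1, -0.32 with the mean over probe sets, -0.028 under reference gene centring, -1.31 on the dimmest probe set), Rpe (-0.19 to 0.80 with 1 array left out, the first without enterocyte replicate 2, -0.47 on the dimmest), Pdk1 (0.064 without marked probe sets and on the dimmest), Pfkm (-0.093), Eno2 (-0.0047) and Pdk3 (-0.043) under reference gene centring, Tkt (0.053 under quantile normalization) and Pfkl (0.20 on the dimmest). Among called genes, signs turned for Aldoc (-0.30 without marked probe sets and on the dimmest), Pck1 (-0.092 on the dimmest) and Gpd1 (-0.021 on the dimmest). Pdhb passed with the pseudocount (0.30, adjusted p = 0.0448 by limma), and Dlat did not on its dimmest probe set (0.46). With levels raised to background, also tried after the data were seen, the change of the ratio of Slc16a1 to Slc16a3 turned from -1.13 to 0.42. For the changes other than this last one the cause was not tested.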

Other observations

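Replicates of the set lay somewhat further apart in enterocyte than in stem arrays. The median absolute gap between the 2 replicates (log2) was 0.17 in the enterocyte and 0.14 in the stem arrays over the 41 genes, and the enterocyte gap was the larger in 28 of them. Over all genes the medians were 0.14 and 0.13. The share of all genes with the larger enterocyte gap was not counted, so the 28 cannot be called particular to the set. Rpe had the widest enterocyte gap of the set, at -0.99 (replicate 1 minus replicate 2), followed by Hk1 at 0.70 and Hk2 at 0.67.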
